A study of Homo sapiens with 6 samples.

Results

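The genes described here are ANG, ANGPT1, ANGPT2, ANGPTL2 and ANGPTL4, together with the receptor genes TEK and TIE1. They were taken from the panel by gene symbol and make up 7 of its 770 genes. Both cell lines are derived from A375, a human malignant melanoma line with the BRAF V600E mutation, and the LUC2 in both cell line names denotes a luciferase reporter. One line additionally has the NRAS Q61K mutation, which locks this GTPase of the MAPK pathway in its active state, and its isogenic counterpart is NRAS wild type. Each line gave 3 samples of total RNA from untreated cells, taken at most 5 population doublings after thawing, which were read with the NanoString nCounter PanCancer Progression panel. This assay counts fluorescent barcodes hybridized to each RNA and involves no amplification. The sources used here do not say whether the lines are single clones or whether the 3 samples came from separate cultures, so the p-values measure the spread between these samples, which may be technical.

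Angiopoietins are secreted ligands of the endothelial receptor tyrosine kinase TIE2, which is encoded by TEK. Angiopoietin 1 activates the receptor and stabilizes vessels, angiopoietin 2 is a context-dependent antagonist, and TIE1 is a related receptor that modulates TIE2. Angiopoietin-like proteins share the domain structure of the angiopoietins but do not bind TIE2, and angiogenin, the product of ANG, is a secreted ribonuclease that promotes vessel growth. Tumour cells can release several of these factors, whereas both receptors are chiefly endothelial.

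Values are normalized counts, that is, background-subtracted counts scaled by the authors to housekeeping genes. Background-subtracted totals before scaling were 1158505 to 1189597 in NRAS Q61K samples and 1224142 to 1264639 in NRAS wild-type samples. The detection floor was 129.7, the mean plus 2 SD of the negative control probes. Those probes were not scaled, whereas the floor was applied to normalized counts, so it is not equally strict in both lines. This floor was passed by 454 of 740 endogenous genes. Of those, 62.1% were called higher and 20.9% lower in NRAS Q61K cells at an adjusted p under 0.05 (limma, Benjamini-Hochberg), and the median log2 difference of all tested genes was 0.32. The split depended on the scaling. Once the authors' sample factors were divided out, 38.5% were called higher and 35.2% lower. Scaling to the positive control probes gave 34.8% higher and 30.6% lower, rescaling to equal medians 33% and 45.4%, and quantile normalization 35.5% and 42.3%. The melanoma-associated genes MCAM and CSPG4 were well above the floor in both lines, with 2530 and 4355 normalized counts in NRAS Q61K cells and 1488 and 1303 in NRAS wild-type cells. Of 6 leukocyte markers on the panel, PTPRC stood at the minimum in every sample. CD163 had means of 3.18 normalized counts in NRAS Q61K and 3.06 in NRAS wild-type cells, and CXCR2 8.83 and 10.5. The other markers read higher, with ITGAM at 136 and 112, ITGB2 at 251 and 219, and CD44 at 9005 and 9516.

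ANGPTL4, ANG, ANGPT1 and ANGPTL2 passed the floor, and TIE1, TEK and ANGPT2 did not. ANGPTL4 fell 6.30-fold in NRAS Q61K cells and was called lower under every scaling tried. ANG, ANGPT1 and ANGPTL2 were 1.38-fold, 1.11-fold and 1.16-fold higher as deposited, with log2 differences on either side of the panel median of 0.32, and none of the 3 was called higher under another scaling. All 4 were called as deposited, as were 83% of tested genes in either direction. The calls numbered 2 of these 4 without the sample factors (73.8% of tested genes), 1 after scaling to the positive controls (65.4%), 3 after median rescaling (78.4%) and 3 after quantile normalization (77.8%). TIE1 was read at 79.9 to 99.1 normalized counts in NRAS Q61K samples and at the minimum in every NRAS wild-type sample, below the floor in both lines.

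Regulatory sequence is shown for ANGPTL4, the member called lower under every scaling, and for TIE1. Of the receptor genes TIE1 had the wider gap between the lines, although all its values lay below the floor and no difference is taken as detected. The windows are the 250 bases before the annotated start, from RefSeq on GRCh38.p14, at chr19:8363905-8364154 and chr1:43300732-43300981, both on the plus strand. Capitals mark matches to any of 4 motifs searched on both strands. These were ACGTG, the hypoxia-inducible factor core, its variant GCGTG, the AP-1 motif TGANTCA, which activating protein 1 binds, and the TATA box motif TATAAA.
ANGPTL4: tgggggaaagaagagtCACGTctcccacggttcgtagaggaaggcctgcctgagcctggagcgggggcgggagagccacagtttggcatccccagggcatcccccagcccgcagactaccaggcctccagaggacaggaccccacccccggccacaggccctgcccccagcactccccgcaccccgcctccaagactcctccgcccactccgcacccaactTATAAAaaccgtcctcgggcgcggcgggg
TIE1: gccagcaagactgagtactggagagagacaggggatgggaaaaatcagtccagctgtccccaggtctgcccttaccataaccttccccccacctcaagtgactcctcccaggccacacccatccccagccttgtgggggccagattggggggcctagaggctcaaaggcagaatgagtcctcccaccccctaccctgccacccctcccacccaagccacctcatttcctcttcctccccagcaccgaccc

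The ANGPTL4 window held 1 ACGTG on the minus strand, 234 bases before the start, and 1 TATAAA on the plus strand, 29 bases before it. ACGTG occurred in 18.5% of the 35116 RefSeq windows of this length, GCGTG in 32.2% and TATAAA in 10.7%. The ACGTG match was not part of the E-box CACGTG, which overlaps that motif and occurred in 6.34% of windows. The TIE1 window held none of these letters, and TGANTCA, found in 6.57% of windows, was in neither. Such matches describe the letters of these windows and say nothing about whether a factor binds there.

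ANGPT1 encodes the activating ligand of TIE2. It had 524.7, 499.5 and 504.5 normalized counts in NRAS Q61K samples, against 487.4, 455.7 and 439.3 in NRAS wild-type samples. All NRAS Q61K samples lay above all NRAS wild-type samples, as was so in one direction or the other for 84.1% of tested genes. The log2 difference was 0.15 ± 0.05 (SE), with a 95% interval of 0.03 to 0.26 (limma adjusted p = 0.0269, n = 3 each), or -0.17 relative to the panel median. Before scaling the order was the opposite, with 450.7 ± 1.02 counts in NRAS Q61K samples and 512 ± 27.8 in NRAS wild-type samples (SD, n = 3 each). ANGPT1 was called lower without the sample factors (log2 difference -0.18, limma adjusted p = 0.00886), after median rescaling (-0.31, adjusted p = 0.000409) and after quantile normalization (-0.28, adjusted p = 0.000141). After scaling to the positive controls the difference was -0.17, with an interval of -0.39 to 0.05, and did not pass. The direction of ANGPT1 between the lines therefore depends on how the samples are scaled.

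ANGPT2, which encodes the context-dependent antagonist, was near the bottom of the range in both lines. It had 10.3, 8.70 and 14 normalized counts in NRAS Q61K samples, against 15.3, 7.97 and 5.39 in NRAS wild-type samples. The lines overlapped, and every value was below the floor, so that no difference was detectable at this signal. With no floor its adjusted p was 0.569 (limma).

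TIE1 encodes the partner receptor that forms complexes with TIE2. It had 79.9, 92.0 and 99.1 normalized counts in NRAS Q61K samples, whereas all 3 NRAS wild-type samples were listed at the minimum of 1. The lines did not overlap, but both lay below the floor, so no fold is given. In the fit with no floor, where 66% of 665 genes were called, 47.2% higher and 18.8% lower in NRAS Q61K cells, TIE1 was among them (limma adjusted p = 1.12e-06). Its NRAS wild-type values were all held at the minimum, with an SD of 0. That p therefore does not measure the spread between NRAS wild-type samples and is not taken as a detected difference. Before scaling, TIE1 read 68.8, 82.8 and 88.5 counts in NRAS Q61K samples. Of the 8 negative control probes, which have no target and were not scaled, 6 never exceeded 24.8 counts, and the other two read 75.5 to 131 and 112 to 144 counts. The highest negative probe read 131, 112 and 134.5 counts in the NRAS Q61K samples, above TIE1 in each, and 125 to 144 in the NRAS wild-type samples. Of 114 endogenous genes at the minimum in every NRAS wild-type sample, TIE1 had the third highest mean in NRAS Q61K samples, behind the integrin subunit genes ITGA9 (174 normalized counts) and ITGA11 (134), both named after their values were seen. Only 2 of the 114 had an NRAS Q61K mean above the floor. This set was chosen by its NRAS wild-type values, so the rank only describes the NRAS Q61K reading and is no support for a difference.

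TEK encodes TIE2 itself, the receptor that angiopoietins bind. It had 24.2, 9.81 and 3.92 normalized counts in NRAS Q61K samples and was at the minimum of 1 in all NRAS wild-type samples. The lines did not overlap, yet every value was far below the floor and the NRAS Q61K samples spread widely among themselves, with a coefficient of variation of 82.5%. With no floor TEK was called higher (limma adjusted p = 0.0166). As for TIE1, the NRAS wild-type values were all held at the minimum, with an SD of 0, and the same limit applies to this p. The highest TEK value came from the NRAS Q61K sample numbered 1, in which TIE1 had its lowest NRAS Q61K value. Without the samples numbered 1, a choice made after the data were seen, the difference in mean TEK signal was 5.87 normalized counts, against 11.6 with them.

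**Figure D1:**
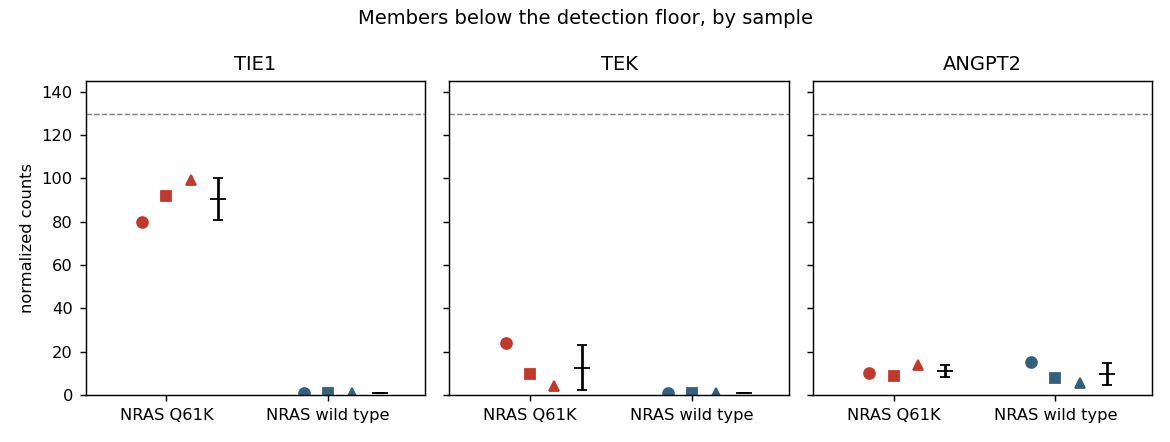
Normalized counts (vertical axis) of TIE1, TEK and ANGPT2 in each sample, with circle, square and triangle for samples 1, 2 and 3, the mean and SD in black (n = 3) and the detection floor of 129.7 as a dashed line. TIE1 lies at 79.9 to 99.1 in NRAS Q61K samples and at 1 in NRAS wild-type samples, and all values of the 3 genes are under the floor.

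ANGPTL4 encodes a secreted inhibitor of lipoprotein lipase that is induced by fasting and by low oxygen and has been tied to vessel permeability and to survival of detached tumour cells. It had 261, 267 and 251 normalized counts in NRAS Q61K samples, against 1680, 1544 and 1706 in NRAS wild-type samples. The lines were far apart, with replicate coefficients of variation of 3.10% in NRAS Q61K and 5.28% in NRAS wild-type samples. ANGPTL4 was 6.30-fold lower, with a 95% interval of 5.79 to 6.84 (log2 difference -2.65 ± 0.05 SE, limma adjusted p = 7.06e-08, n = 3 each). Relative to the panel median the log2 difference was -2.98. It was the eighth lowest of 454 tested genes, of which 98.2% had a higher log2 difference. In RNA from whole cultures, fewer cells expressing a gene and less RNA per cell cannot be told apart.

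Scaling moved the size of the ANGPTL4 difference and not its direction. It was 7.91-fold lower without the sample factors, 7.84-fold after scaling to the positive controls, 8.61-fold after median rescaling and 8.32-fold after quantile normalization. Leaving out any 1 sample gave log2 differences of -2.70 to -2.63, with adjusted p of 9.79e-07 to 2.58e-06 (limma).

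ANGPTL2 encodes a secreted glycoprotein that signals through integrin alpha-5 beta-1 and is associated with inflammation. It had 543.3, 501.7 and 534.7 normalized counts in NRAS Q61K samples, against 495.5, 436.7 and 430.4 in NRAS wild-type samples. The samples did not overlap, although the lowest NRAS Q61K value, 501.7, was close to the highest NRAS wild-type value, 495.5. The log2 difference was 0.21 ± 0.07 (SE), with an interval of 0.06 to 0.37 (limma adjusted p = 0.0209, n = 3 each), or -0.11 relative to the panel median. Its direction turned under the other scalings. ANGPTL2 was called lower after median rescaling (-0.24, adjusted p = 0.00894) and quantile normalization (-0.20, adjusted p = 0.0104), and did not pass without the sample factors (-0.11, interval -0.26 to 0.04) or after scaling to the positive controls (-0.10, interval -0.32 to 0.12).

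ANG encodes angiogenin, which cleaves transfer RNA under stress and enters target cells to promote ribosomal RNA synthesis. It had 491, 388 and 380 normalized counts in NRAS Q61K samples, against 350, 292 and 269 in NRAS wild-type samples. The lines did not overlap, and ANG was the most variable of the tested members, with coefficients of variation of 14.7% in NRAS Q61K and 13.8% in NRAS wild-type samples. The log2 difference was 0.47 ± 0.14 (SE), with an interval of 0.13 to 0.80 (limma adjusted p = 0.0183, n = 3 each), and 0.14 relative to the panel median. It stayed above 0 but did not pass under any other scaling, with 0.14 and an interval of -0.16 to 0.44 without the sample factors, and 0.014 and an interval of -0.27 to 0.29 after median rescaling. In the human genome ANG shares its promoters and 5′ exons with RNASE4, and which transcripts the probe reads is not given in the sources used here.

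In each line the sample numbered 1 gave the highest ANG value, 0.24 above its line's mean in NRAS Q61K and 0.21 above it in NRAS wild type (log2). Over the 137 tested genes with a mean of 300 to 1000 normalized counts, the range that holds ANG, the median deviation was 0.045 in that NRAS Q61K sample and 0.040 in that NRAS wild-type sample, well below that of ANG. Over the 113 tested genes with a lower mean it was 0.13 in that NRAS Q61K sample and 0.05 in that NRAS wild-type sample. With both samples left out, a choice made after the data were seen, the log2 difference of ANG was 0.45 (limma adjusted p = 0.00192, n = 2 each), about as large as with them. The call was lost without NRAS wild-type sample 2 (0.44, adjusted p = 0.0584) or sample 3 (0.38, adjusted p = 0.0524). For ANGPT1 and ANGPTL2 the call was lost in 4 of the 6 fits that left out 1 sample, namely those without NRAS Q61K sample 1 or 3 and those without NRAS wild-type sample 2 or 3.

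**Figure D2:**
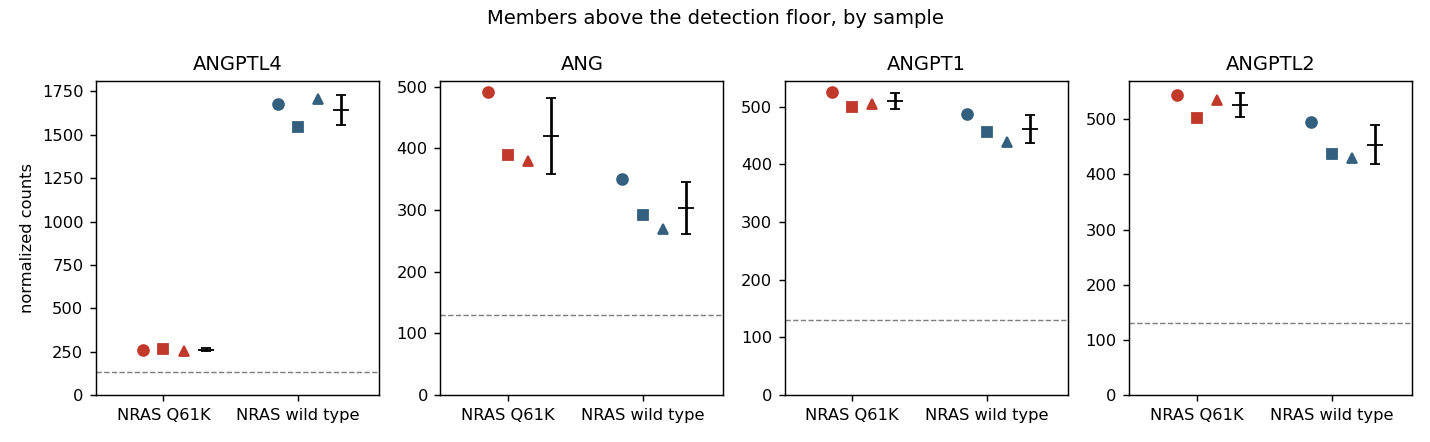
Normalized counts (vertical axes from 0, a separate scale for each gene) of ANGPTL4, ANG, ANGPT1 and ANGPTL2 in each sample, with circle, square and triangle for samples 1, 2 and 3, the mean and SD in black (n = 3) and the detection floor of 129.7 as a dashed line. ANGPTL4 lies at 251 to 267 in NRAS Q61K samples and 1544 to 1706 in NRAS wild-type samples, and the other genes differ by far less.

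**Figure D3:**
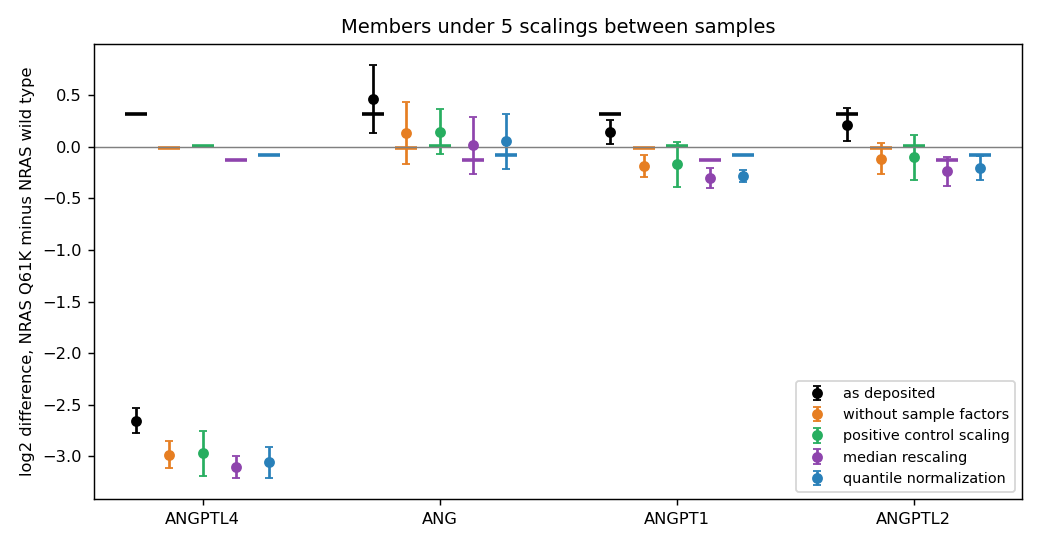
Log2 difference, NRAS Q61K minus NRAS wild type (points, with 95% limma intervals), of the 4 tested members under 5 scalings, and the panel median under each scaling (short horizontal bars). ANGPTL4 lies between -2.65 and -3.11 throughout, whereas ANGPT1 and ANGPTL2 change sign between the deposited scale and the other 4.

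A ratio of 2 genes within a sample is free of the scaling between samples, so the 6 ratios among the tested members were compared between lines by a 2-sided exact permutation test. With 3 samples against 3 this exact test cannot go below p = 0.1. The log2 ratio of ANGPTL4 to ANGPT1 averaged -0.97 ± 0.06 in NRAS Q61K and 1.83 ± 0.11 in NRAS wild-type samples (SD, n = 3 each), a difference of -2.80 with no overlap (exact p = 0.1, adjusted p = 0.12). ANGPTL4 against ANGPTL2 differed by -2.87 and against ANG by -3.12, with no overlap between lines and the same p. ANG over ANGPT1 was higher by 0.32 and ANG over ANGPTL2 by 0.25, again with no overlap and the same p. ANGPT1 over ANGPTL2 overlapped between the lines, with a mean log2 ratio of -0.05 ± 0.04 in NRAS Q61K and 0.02 ± 0.04 in NRAS wild-type samples (SD, n = 3 each, exact p = 0.2). No ratio passed after adjustment, and a ratio does not say which gene of a pair stayed level.

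**Figure D4:**
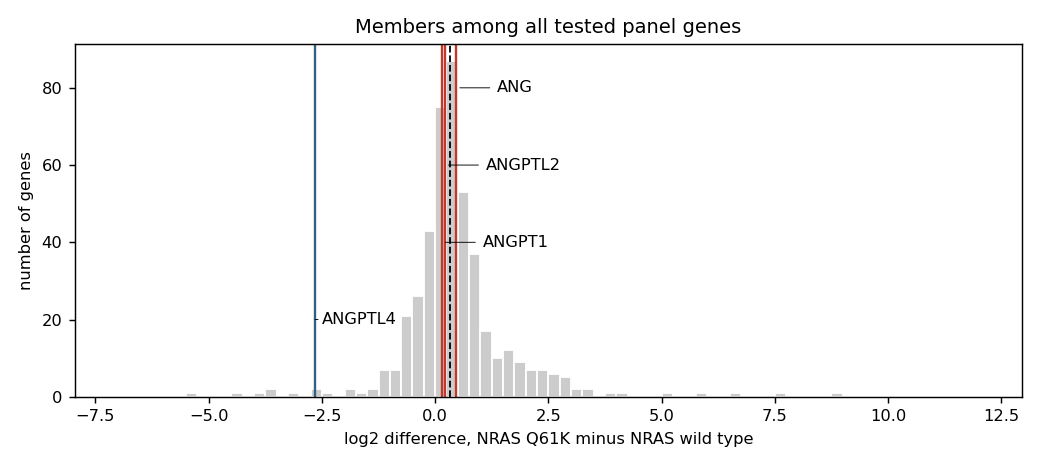
Number of the 454 tested genes (vertical axis) in each interval of log2 difference, NRAS Q61K minus NRAS wild type (horizontal axis, intervals 0.25 wide), with the tested members as vertical lines and the panel median of 0.32 dashed. ANGPTL4, at -2.65, is in the thin lower tail, and ANGPT1, ANGPTL2 and ANG, at 0.15, 0.21 and 0.47, are near the median.

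The genes with the profile most like each tested member were found by the root mean square distance between log2 profiles over the 6 samples, each centred on its own mean. They were picked on these same samples, so a direction or a high sample shared with the member follows from that choice. For ANGPTL4 the nearest gene was THBS1, encoding the angiogenesis inhibitor thrombospondin 1, at a distance of 0.0462. THBS1 had 4563, 4646 and 4581 normalized counts in NRAS Q61K samples, against 29845, 28987 and 29105 in NRAS wild-type samples, 6.38-fold lower (limma adjusted p = 2.21e-08). Next came PTX3, encoding the inflammatory protein pentraxin 3, at a distance of 0.161 and 5.12-fold lower, and AREG, encoding the receptor ligand amphiregulin, at 0.186. AREG had 101 ± 8.71 normalized counts in NRAS Q61K and 814 ± 15.1 in NRAS wild-type samples. Its NRAS Q61K mean was below the floor, so AREG was at least 6.28-fold lower, and its distance rests in part on values under the floor. For ANG the nearest were INHBE, PLAU and ABI3BP, at distances of 0.0564 to 0.0657. INHBE encodes an inhibin subunit, PLAU the urokinase protease and ABI3BP a matrix protein. In all 3 the sample numbered 1 was the highest of each line, as it was for ANG, a likeness that the choice by profile favours. MMP1, AGGF1 and HLA-DPB1 were nearest to ANGPT1 (0.0286 to 0.0409). MMP1 encodes interstitial collagenase, AGGF1 an angiogenic factor and HLA-DPB1 an antigen-presenting chain. AGGF1 itself had 817 ± 51.5 normalized counts in NRAS Q61K and 750.5 ± 42.2 in NRAS wild-type samples and did not pass (limma adjusted p = 0.112). MTOR, encoding a growth-regulating kinase, HLA-DPB1 and ANGPT1 itself were nearest to ANGPTL2, at distances of 0.0289 to 0.0481.

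Of 23 panel genes listed for signalling by angiopoietins and their receptors, 21 were tested, and 15 were higher and 3 lower in NRAS Q61K cells, with a median log2 difference of 0.43 against 0.32 over all tested genes. With the factors divided out 11 were higher and 7 lower, and median rescaling gave 8 higher and 9 lower. Of all tested genes, 62.1% were higher and 20.9% lower as deposited. These shares were 38.5% and 35.2% with the factors divided out, and 33% and 45.4% after median rescaling. ITGB3, encoding the integrin beta-3 subunit, was 5.49-fold higher, with 6244 ± 294 normalized counts in NRAS Q61K and 1135 ± 22.2 in NRAS wild-type cells (SD, n = 3 each). TGFB1, encoding transforming growth factor beta-1, was 1.90-fold higher. VEGFA, encoding the vascular growth factor that acts beside angiopoietins, was 1.95-fold lower. These 3 kept their calls under all scalings. PTPRB, named after its values were seen, encodes the endothelial phosphatase that acts on TIE2 and was below the floor in both lines, at 6.45 ± 3.03 normalized counts in NRAS Q61K and 34.1 ± 12.1 in NRAS wild-type samples.

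Partners and regulators of angiopoietin-like proteins numbered 12 on the panel. Of 10 tested, 8 were higher and 1 lower, beside 62.1% and 20.9% of all tested genes. Their median log2 difference was 0.48, against 0.32 over all tested genes. Median rescaling left 4 of them higher and 3 lower, beside 33% and 45.4% of all tested genes. FN1, encoding fibronectin, which ANGPTL4 can bind in the matrix, had 6186 ± 168 normalized counts in NRAS Q61K and 572 ± 38.3 in NRAS wild-type cells. APOE, encoding a lipoprotein component, was at least 7.71-fold higher, since its NRAS wild-type mean of 15.5 was below the floor (1000.3 in NRAS Q61K). ITGB3 and TGFB1, given above, also belong to this list. Of further genes named after their values were seen, ITGA5 and ITGB1 encode the integrin that binds ANGPTL2. ITGA5 was 1.43-fold and ITGB1 1.35-fold higher as deposited, and neither held its call after scaling to the positive controls or after median rescaling, nor ITGB1 after quantile normalization. HIF1A, encoding the oxygen-regulated subunit of the factor that induces ANGPTL4, was 1.08-fold lower at 10655 ± 93.5 normalized counts in NRAS Q61K and 11561 ± 104 in NRAS wild-type cells.

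All 9 panel genes listed for angiogenin were tested. Of these, 6 were higher and 2 lower, near the shares of 62.1% and 20.9% over all tested genes. Their median log2 difference was 0.51, against 0.32 over all tested genes. After median rescaling 4 were higher and 4 lower, beside 33% and 45.4% of all tested genes. FBLN1, encoding the matrix protein fibulin 1, which binds angiogenin, was at least 2.26-fold higher, with 293 ± 5.23 normalized counts in NRAS Q61K and 27.8 ± 5.63 in NRAS wild-type cells. The basement membrane proteoglycan gene HSPG2 was 1.87-fold and the gelatinase gene MMP2 1.49-fold higher, and both were called higher under every scaling. RNH1, which encodes the cytoplasmic ribonuclease inhibitor that blocks angiogenin, did not pass, at 1035 ± 29.0 normalized counts in NRAS Q61K and 1077 ± 68.4 in NRAS wild-type cells (limma adjusted p = 0.361), and was called lower under the other 4 scalings. EGFR, reported as a receptor of angiogenin in pancreatic cancer cells, was 1.24-fold lower. RNH1 and EGFR were named after their values were seen.

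**Figure D5:**
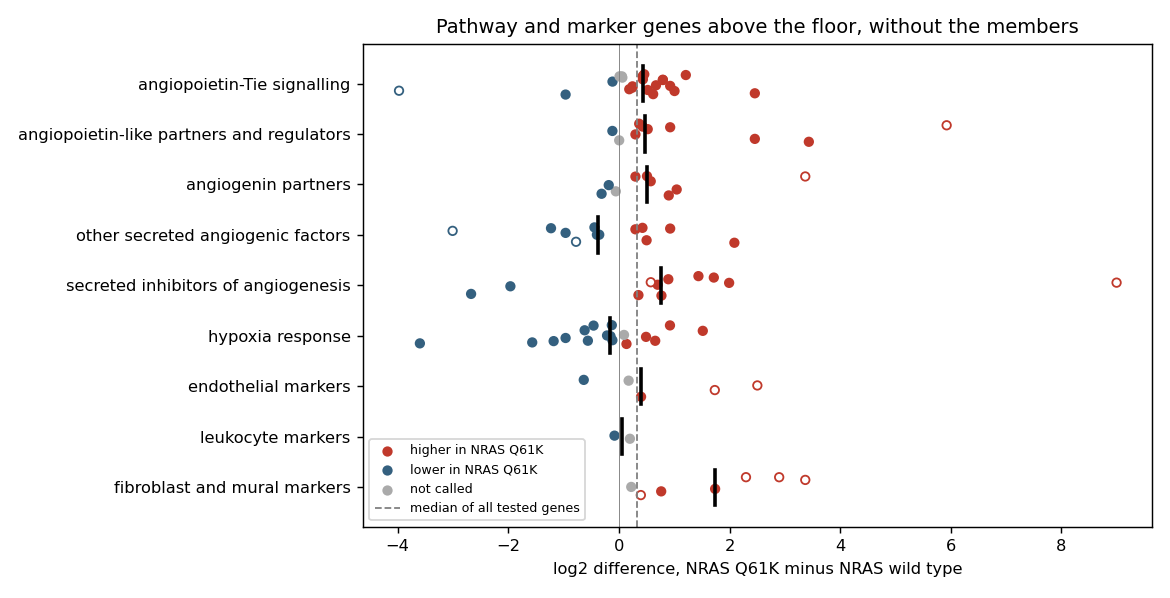
Log2 difference, NRAS Q61K minus NRAS wild type, of every tested gene of the pathway and marker lists (points coloured by call), with the list median (black bar) and the median of all tested genes (dashed). Open points have 1 line below the floor, so their position is a fitted value and not a measured fold, and the lists of hypoxia response and other angiogenic factors have medians below 0.

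Other secreted angiogenic factors were split. Of 21 on the panel 12 were tested, 5 of them higher and 7 lower, beside 62.1% and 20.9% of all tested genes. Their median log2 difference was -0.38, against 0.32 over all tested genes. After median rescaling 2 were higher and 7 lower, beside 33% and 45.4% of all tested genes. CXCL8, encoding interleukin 8, was 4.25-fold higher and SPP1, encoding osteopontin, 2.34-fold lower, while AREG and TGFB1 are described above. Of 13 secreted inhibitors of angiogenesis 11 were tested, 9 of them higher and THBS1 and ADAMTS1 lower, with a median of 0.77. After median rescaling 7 were higher and 2 lower. The shares over all tested genes are those given for the other angiogenic factors. SPARC, encoding a matricellular protein, was 3.29-fold and COL4A1, encoding the chain that releases arresten, 3.98-fold higher, and ADAMTS1, encoding a secreted metalloprotease, was 3.90-fold lower. SERPINF1, named after its values were seen, was at least 23.5-fold higher, with 3045 ± 38.9 normalized counts in NRAS Q61K and 6.58 ± 5.03 in NRAS wild-type cells. ANGPTL4 thus fell beside the inhibitor genes THBS1 and ADAMTS1 and the growth factor gene VEGFA, whereas 9 inhibitor genes were higher as deposited.

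ANGPTL4 is itself a hypoxia-response gene. Of the other 17 tested genes of that list, 5 were higher and 11 lower, beside 62.1% and 20.9% of all tested genes. Their median log2 difference was -0.15, against 0.32 over all tested genes. After median rescaling 3 were higher and 13 lower, beside 33% and 45.4% of all tested genes. HMOX1, encoding haem oxygenase 1, had 199.9 ± 10.2 normalized counts in NRAS Q61K and 2430.4 ± 55.3 in NRAS wild-type cells, and HK2, encoding hexokinase 2, was 2.27-fold lower. PFKFB4, encoding a regulator of glycolysis, went the other way, 2.86-fold higher. VEGFA is given above.

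Because TIE1 and TEK are endothelial receptors, markers of other cell types were read beside them. Of 15 endothelial markers, summing to 1444 to 1663 normalized counts in NRAS Q61K and 1000.05 to 1089 in NRAS wild-type samples, 5 were tested. KDR was at least 1.76-fold and FLT1 at least 2.85-fold higher, and both encode receptors for the VEGF family. PECAM1, encoding an endothelial adhesion molecule, was 1.32-fold higher as deposited and not called under the other 4 scalings, and the guidance receptor gene ROBO4 was 1.55-fold lower. CD34 did not pass, at 294 ± 44.7 normalized counts in NRAS Q61K and 258 ± 21.1 in NRAS wild-type cells, and was called lower after quantile normalization. FLT4, ECSCR and STAB2 stood at the minimum in every sample, and EMCN, TAL1 and STAB1 had means under 4 normalized counts in both lines. The remaining untested markers read above the minimum and below the floor. EGFL7 had means of 48.5 normalized counts in NRAS Q61K and 17.0 in NRAS wild-type cells, NOS3 45.2 and 65.6, SOX17 22.3 and 19.7, and MMRN2 15.5 and 13.4. Of 13 fibroblast and mural markers, which summed to 8687 to 9235 in NRAS Q61K and 3411 to 3493 in NRAS wild-type samples, 7 were tested and 6 were called higher as deposited, beside 62.1% of all tested genes. Under each of the other 4 scalings 5 were called higher. The shares of all tested genes were then 38.5% without the sample factors, 34.8% after scaling to the positive controls, 33% after median rescaling and 35.5% after quantile normalization. Most of that sum came from the melanoma-associated genes MCAM and CSPG4, whose values are given above. PDGFRB, encoding a platelet-derived growth factor receptor, was at least 5.29-fold, and LUM, encoding lumican, at least 3.57-fold higher. CSPG4, a proteoglycan gene that melanoma cells express, was 3.34-fold higher, and COL1A2 was at the minimum in every sample. Of 6 leukocyte markers 2 were tested, CD44 being 1.06-fold lower and ITGB2 not called. Neither was called with no floor, with any 1 sample left out or without the samples numbered 1, and both were called lower after median rescaling. The part of other cell types in the TIE1 and TEK readings was not tested.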

How the data were processed

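Total RNA of 3 NRAS Q61K and 3 NRAS wild-type samples was read on the nCounter panel, and samples were grouped and numbered by their titles. The deposited values are a normalized signal of 784 rows, 770 genes and 8 negative and 6 positive control probes. As read from the deposited numbers themselves, a gene's value is a whole count minus a background, times 1 factor per sample (1.11 to 1.16 in NRAS Q61K, 0.898 to 0.903 in NRAS wild type), held at a minimum of 1. With these factors 100% of values between 1.5 and 400 were whole within 0.03. The factor equalises 30 housekeeping genes (geometric mean 728 to 733 in every sample), so a true difference in them would shift every other gene the opposite way. These genes were recognised from knowledge of the panel family, and this equality was the check. Software and settings are not given in the sources used here.

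Endogenous genes with a mean above the floor were tested on log2(value + 1) with limma 3.58.1 in R 4.3.3 (lmFit, eBayes), 2-sided, with Benjamini-Hochberg adjustment over all 454. The log2(value + 1) scale understates changes of low genes. Where 1 line was below the floor, the other line's mean divided by the floor is given as a bound. It is approximate, because it divides a normalized mean by a floor from unscaled probes. Alternatives were 4 scalings, 2 pseudocounts (0.5 and 20), 3 filters, 2 variance models, a replicate block and leaving out samples. Genes were named by a rule: all members, all called genes of a list with at most 5, otherwise the 4 of smallest adjusted p with no overlap between lines, and the 3 most similar profiles per tested member. Members, lists and tests were chosen with earlier results of these data known, and a few further genes after their values were seen. Some genes that the rule names are not reported here. All 7 members matched a current RefSeq symbol, and 5 had a promoter window.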

Additional observations from a re-analysis of the deposited data

How the results depend on the processing

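ANGPTL4 was called lower in every one of the 19 alternatives. The other tested members depended on the scaling. Without the sample factors 2 members were called (73.8% of tested genes), and the log2 differences were 0.14 for ANG, -0.18 for ANGPT1 and -0.11 for ANGPTL2. After scaling to the positive controls 1 member was called (65.4% of tested genes), and the values were 0.15, -0.17 and -0.10. They were 0.014, -0.31 and -0.24 after median rescaling and 0.056, -0.28 and -0.20 after quantile normalization. Dividing out or replacing 1 factor per sample shifts all genes together by construction. With no floor the value of ANGPT1 was 0.15 and missed the threshold (limma adjusted p = 0.0522). Leaving out 1 sample gave 1 to 4 called members, and log2 differences of 0.35 to 0.57 for ANG, 0.11 to 0.19 for ANGPT1 and 0.18 to 0.28 for ANGPTL2. The panel count was 377 of 454 tested genes (83%). Over all alternatives it ranged from 297 of 454 (65.4%) after scaling to the positive controls to 439 of 665 (66%) with no floor. With the replicate number as a block all 4 tested members were called, with limma adjusted p of 0.0003 for ANG, 0.0154 for ANGPT1, 0.0114 for ANGPTL2 and 9.14e-06 for ANGPTL4, so the block changed no member's call. Same-numbered samples correlated at 0.22, 0.05 and 0.07 in their deviations from their line's mean over the tested genes. Samples with different numbers were not compared in this way, so these values do not decide whether the numbers pair samples. No sample label says that a number marks a shared culture or day, and the main fit had no block. In the fit scaled to positive controls the spread is mostly a shift common to all genes of a sample, so its p-values are given only as calls. Those calls, and the intervals of that fit for ANGPT1 and ANGPTL2, carry the same limit. Signals below 129.7 counts limit TIE1, TEK and ANGPT2, and since the subtracted background is not given, counting intervals are not stated.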
